A study of Mus musculus with 4 samples.

Results

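The combination of IL-17A and IMQ in mouse dorsal skin was examined for departure from additivity, that is, for genes whose IL-17A difference with IMQ was not the IL-17A difference without it. The animals were C57BL/6J mice at an age of 8 to 12 weeks. Their skin RNA, pooled from 6 mice for each Illumina bead array, gave 4 arrays, and all 4 of the 4 in the series were used. The groups, of 1 array each, were skin of mice injected with IL-17A mini-circle DNA and given IMQ (IL-17A with IMQ), with GFP mini-circle DNA and given IMQ (GFP with IMQ), with IL-17A mini-circle DNA alone (IL-17A) and with GFP mini-circle DNA alone (GFP). A mini-circle is a small circular expression DNA without a plasmid backbone, and every group received one. The labels give no dose, schedule or time for IMQ, no vehicle for the arrays without it, no promoter or expressing tissue for the mini-circles, and pooling averaged the differences between mice before measurement.

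IMQ is the usual abbreviation of imiquimod, an agonist of Toll-like receptor 7 that activates plasmacytoid dendritic cells and other myeloid cells, which release type I interferon and inflammatory cytokines. IL-17A is a cytokine of T cells that acts on keratinocytes, which answer with neutrophil-attracting chemokines, antimicrobial proteins and a thickened, less differentiated epidermis. Imiquimod applied to mouse skin is widely used as a model of psoriasis-like inflammation that depends on the IL-23 and IL-17 axis, so both agents act on overlapping programmes.

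The departure was the difference of IL-17A with IMQ minus GFP with IMQ, less the difference of IL-17A minus GFP, on the log2 scale of normalized signal. A departure of 0 means that the folds of both agents multiplied. A value of 1 means that the IL-17A with IMQ array had 2-fold the signal that the other 3 arrays give by this rule, and -1 that it had that many fold less. The same number is obtained as IMQ minus none in IL-17A skin, less IMQ minus none in GFP skin. It was computed for 12729 genes, each represented by 1 probe above the noise limit on at least 1 array. With 1 array a group there is no replicate error, so no test was made, and all statements describe these 4 arrays. Since the value combines all 4 arrays, the levels on each are given for the genes described most closely.

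The median departure of all 12729 genes was -0.01, the quartiles were -0.19 and 0.18, and the central 95% of genes lay between -0.59 and 0.67 (SD across genes 0.334). The departure was at least 1 in 87 genes (0.683% of all genes tested) and at most -1 in 56 genes (0.44%). It ranged from -4.36 for Krt27 to 2.35 for Bst2. At the edge of the rule, Phf11d was just inside at 1.01 and Mmp9 just outside at 0.999, and on the other side Ung was inside at -1.002 and Krt26 outside at -0.998. The simple differences behind the departure share arrays with each other and had a smaller spread than it, except for IL-17A minus GFP without IMQ. Their SD across genes was 0.319 for IL-17A minus GFP with IMQ, 0.369 for IL-17A minus GFP without IMQ, 0.198 for IMQ minus none in IL-17A skin and 0.295 for IMQ minus none in GFP skin. Of these the difference made by IMQ in IL-17A skin varied least across genes.

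**Figure D1:**
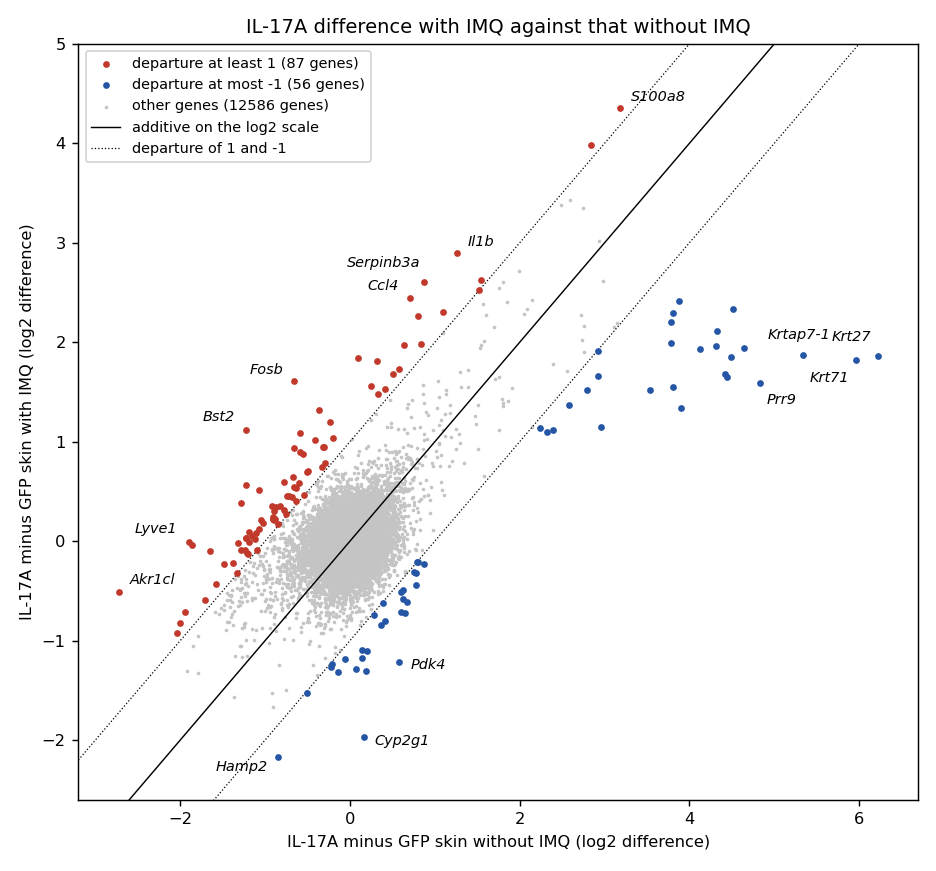
Each point is 1 of 12729 genes, with the log2 difference of IL-17A minus GFP skin with IMQ on the vertical axis and that without IMQ on the horizontal axis. The solid line is additivity and the dotted lines are departures of 1 and -1: the 87 genes above them lie mostly where the difference without IMQ is near or below 0, and of the 56 genes under them the hair genes around Krt27 form a group far to the right.

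The arrays were alike in detection. Between 11463 and 11532 of the genes were above the noise limit on each array, and keratinocyte, fibroblast, endothelial and skeletal muscle markers were all detected on all 4. Keratinocyte markers summed to 85697 units of background-corrected signal in IL-17A with IMQ skin, 91019 in GFP with IMQ skin, 88178 in IL-17A skin and 96021 in GFP skin. Epcam of the Langerhans cell markers, Lck of T cells, Ms4a2 of mast cells, Cd68 of macrophages and Ly6g, Fpr1 and Mmp8 of neutrophils had no named probe above the limit. The probe for Il17a itself read 14.4 deposited signal units in IL-17A with IMQ skin, 11.01 in GFP with IMQ skin, 7.98 in IL-17A skin and 11.1 in GFP skin, against limits of 11.8, 11.6, 12.6 and 12.7 on those arrays. It passed the limit on the IL-17A with IMQ array alone. The dim arrays enter the departure with both signs and leave it without a bound, so no departure is given for this probe. Where the mini-circle was expressed is not stated, so this probe does not check the labels.

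The array that stood apart, taken as the one whose removal left the smallest range among the other 3, was not evenly spread. This choice names 1 array for every gene, also where the levels form a high pair and a low pair, as in Bst2, counted under GFP. Of the 87 genes with a departure of at least 1, the array that stood apart was GFP in 53, IL-17A with IMQ in 20, GFP with IMQ in 13 and IL-17A in 1. Of the 56 genes with a departure of at most -1 it was GFP in 36, IL-17A with IMQ in 11, GFP with IMQ in 8 and IL-17A in 1. The high-departure genes fell into 3 orders of levels, a grouping chosen after the values were seen. In 46 of them both single-treatment arrays were lowest. In 19 the IL-17A with IMQ array was highest and GFP was not second, and in 22 the GFP array was highest and IL-17A with IMQ was not second. Among all 12729 genes, both single-treatment arrays were lowest in 13.3% and highest in 14.7%. The rule requires a high departure to take one of few orders, so these counts describe the genes and are not read against those shares.

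**Figure D2:**
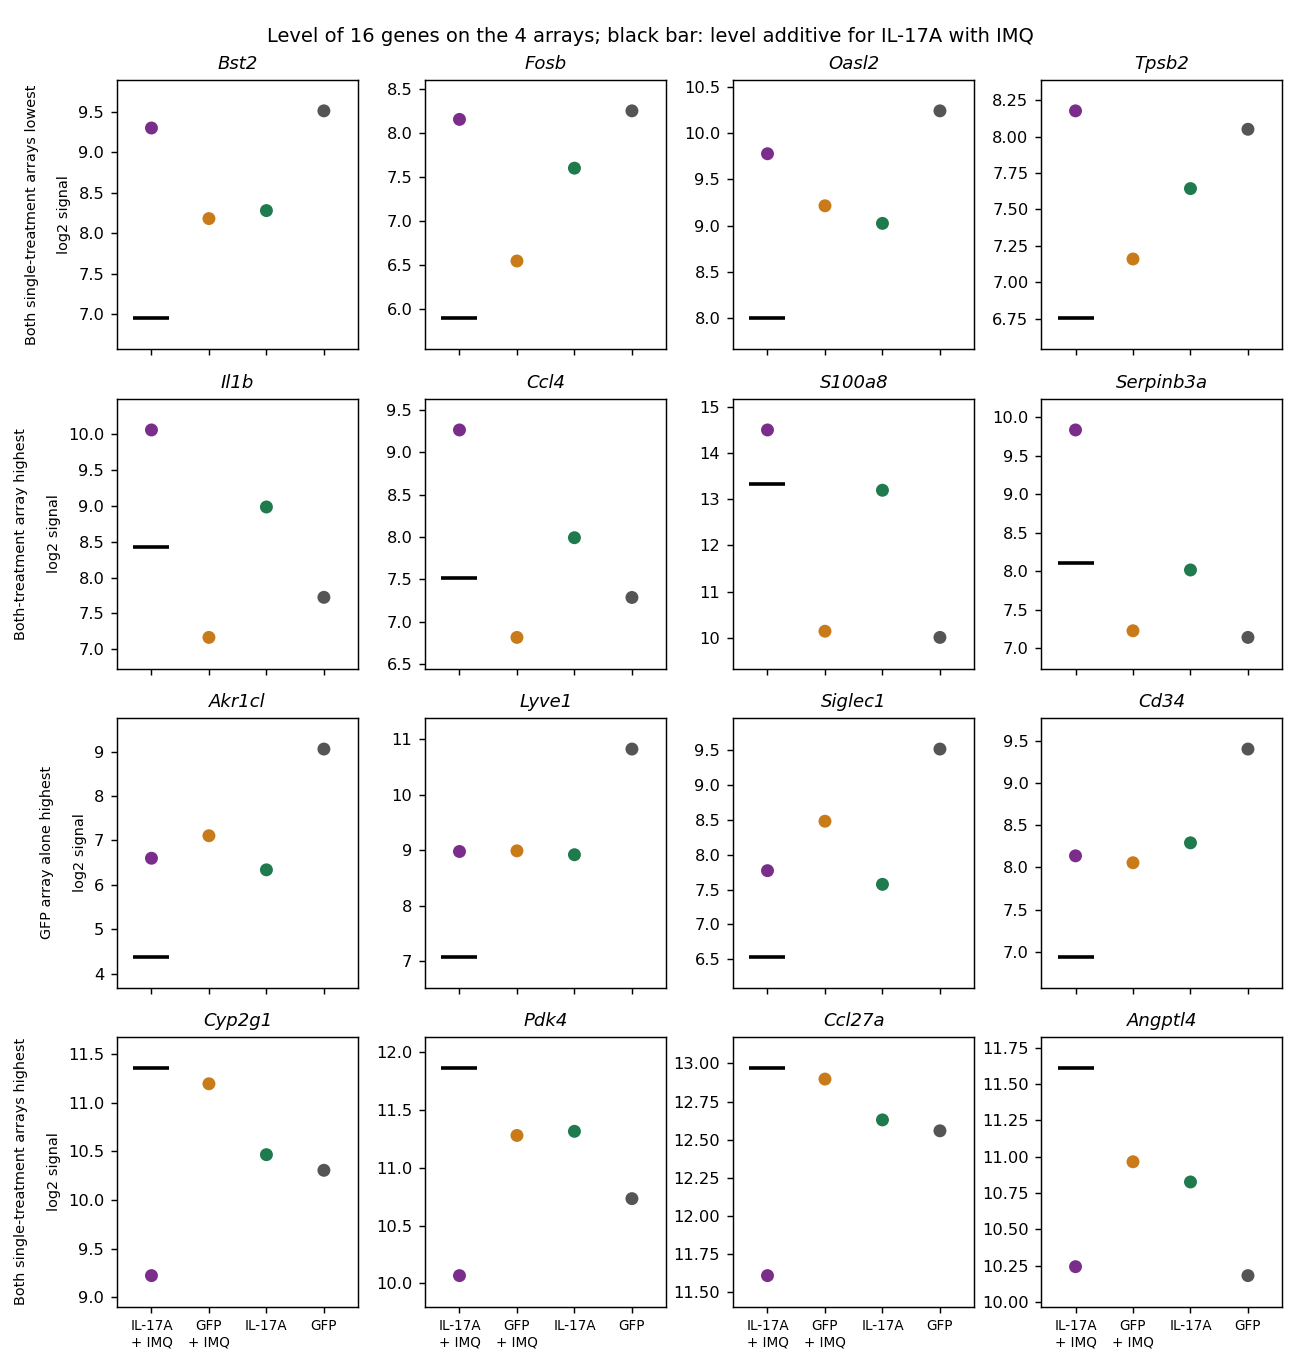
Normalized log2 signal of 16 genes on each array, from left to right IL-17A with IMQ, GFP with IMQ, IL-17A and GFP, 1 array a group, with a separate vertical scale for each gene. The black bar is the level at which IL-17A with IMQ would be additive: Bst2 had 9.30 where additivity gives 6.95, and Cyp2g1 in the bottom row had 9.22, below all other arrays and its bar.

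Interferon-stimulated genes had the highest median departure of the 33 gene lists, with low single treatments and a higher combination and GFP array. These genes are switched on by type I interferon and encode antiviral effectors. Of 32 detected genes of the type I interferon list, 30 had a positive departure, 11 had a departure of at least 1 and 0 of at most -1, and the list's median was 0.87, against -0.01 for all genes. The median of IL-17A minus GFP was 0.15 with IMQ and -0.51 without IMQ. The median of IMQ minus none was 0.23 in IL-17A skin and -0.45 in GFP skin. Both single-treatment arrays were lowest in 22 of the 32 (68.8%). GFP skin, which had received neither IL-17A nor IMQ, was the highest of the 4 arrays in 29 of the 32. A positive departure here therefore mostly came with a combination level below that of GFP skin, by an amount that differed between genes. The list's median of IL-17A with IMQ minus GFP was -0.25, and the value was -0.21 for Bst2 and -0.70 for Oas1g.

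Bst2, also called tetherin, which holds budding viruses on the cell surface, had the highest departure of all genes. Its log2 level was 9.30 in IL-17A with IMQ skin, 8.18 in GFP with IMQ skin, 8.28 in IL-17A skin and 9.51 in GFP skin. The arrays fell into a high pair and a low pair, and IL-17A minus GFP was 1.12 with IMQ and -1.23 without IMQ. The departure of 2.35 put the combination 5.09-fold over the additive level. Oasl2, which encodes an oligoadenylate synthetase-like antiviral protein, had 9.78, 9.21, 9.02 and 10.24 on the same arrays in that order, and a departure of 1.78. A further Oasl2 probe gave 0.64. The Oas1g probe, which may also bind transcripts of its close relatives in the Oas1 family, which make the messenger that activates RNase L, had 9.26, 8.88, 8.67 and 9.96, and a departure of 1.66. Rsad2, or viperin, which makes a chain-terminating nucleotide, had 8.50, 7.98, 7.85 and 8.93, and a departure of 1.59. In all of these genes GFP skin was highest, the combination second and the single treatments lowest. Isg15, a ubiquitin-like modifier that was added after its values were seen because its promoter is shown, had 9.08, 8.20, 8.58 and 9.14, and a departure of 1.43. Mx1 at 0.10 and Stat2 at 0.06, also outside the naming rule, lie at the additive end of the same list, so the departure was not shared by all interferon-stimulated genes.

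Promoters of 4 genes of this list are shown, chosen because they hold the sequence through which interferon acts. The promoter entry of Oasl2, the second highest departure in the list, held no match in this window and is not shown. The 250 bases before the transcription start of Bst2 (chr8:71537473-71537722, minus strand), Isg15 (chr4:156200819-156201068, minus strand), Oas1g (chr5:120887614-120887863, minus strand) and Rsad2 (chr12:26456453-26456702, minus strand) are from RefSeq on GRCm38.p6, read in the direction of the gene. Capitals mark matches to the core of the interferon-stimulated response element, searched on both strands as GAAA, any 2 bases and GAAA again.
Bst2: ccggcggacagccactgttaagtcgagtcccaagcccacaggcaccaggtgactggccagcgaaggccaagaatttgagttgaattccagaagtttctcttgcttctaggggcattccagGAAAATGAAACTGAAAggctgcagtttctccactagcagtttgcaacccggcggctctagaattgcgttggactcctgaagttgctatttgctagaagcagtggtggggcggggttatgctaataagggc
Isg15: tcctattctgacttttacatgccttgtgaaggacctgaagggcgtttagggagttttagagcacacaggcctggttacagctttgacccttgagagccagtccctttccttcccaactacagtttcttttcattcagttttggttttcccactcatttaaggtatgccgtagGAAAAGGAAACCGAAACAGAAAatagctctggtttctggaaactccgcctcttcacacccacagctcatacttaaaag
Oas1g: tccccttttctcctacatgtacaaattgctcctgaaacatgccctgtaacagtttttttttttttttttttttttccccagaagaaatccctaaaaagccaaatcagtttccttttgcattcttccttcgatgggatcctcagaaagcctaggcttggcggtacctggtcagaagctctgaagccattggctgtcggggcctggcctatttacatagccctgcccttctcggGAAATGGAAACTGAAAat
Rsad2: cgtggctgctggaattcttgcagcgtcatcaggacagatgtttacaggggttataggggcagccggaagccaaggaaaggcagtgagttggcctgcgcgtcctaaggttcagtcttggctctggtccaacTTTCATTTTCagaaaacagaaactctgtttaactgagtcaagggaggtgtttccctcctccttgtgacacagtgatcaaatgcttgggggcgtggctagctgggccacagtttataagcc
Bst2 held 2 overlapping matches that began 130 and 124 bases before the start, Isg15 held 3 that overlap in a chain from 78 bases before it, Oas1g held 2 from 18 bases before it, and Rsad2 held 1 on the opposite strand 120 bases before it. Of all 32851 promoter windows of this length, 978 (2.98%) held the motif. That share counts windows, which belong to 27025 gene symbols. The counts for the list are of genes, each counted if any of its windows matched. Of the detected interferon list, 21 genes had a promoter entry and 8 of these held it, and of the 11 genes with a departure of at least 1, 9 had an entry and 5 held it. None of these matches overlapped the other motif searched. A match is a stretch of letters and not a measured binding site, and the list was itself drawn up from genes known to answer to interferon.

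Macrophage genes also had a positive median departure, lower than that of the interferon list and with another order of levels. Of 45 detected genes of the macrophage and monocyte list, 42 had a positive departure and 6 had a departure of at least 1, with a median of 0.59. GFP skin was highest in 39 of the 45. For this and the other lists, 6224 of all 12729 genes had a positive departure and 0.683% a departure of at least 1. Over all 12729 genes, GFP skin was highest in 3613 and the combination in 3526. In the macrophage list the median of IL-17A minus GFP was -0.57 with IMQ and -1.13 without IMQ, so the IL-17A difference was negative in both settings and smaller with IMQ. Markers of macrophages summed to 8634 signal units in IL-17A with IMQ skin, 12913 in GFP with IMQ skin, 9741 in IL-17A skin and 25063 in GFP skin, with 8 of 9 markers above the limit on every array and Cd68 not detected. In whole tissue, fewer cells of a type and less RNA per cell cannot be told apart.

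Siglec1, a sialic acid-binding receptor of resident macrophages that interferon also induces, had a log2 level of 7.77 in IL-17A with IMQ skin, 8.48 in GFP with IMQ skin, 7.58 in IL-17A skin and 9.52 in GFP skin. The departure of 1.23 came with the combination below GFP with IMQ, so IL-17A skin was lower than GFP skin both with IMQ (-0.71) and without IMQ (-1.94). Cd14, the co-receptor that presents lipopolysaccharide to Toll-like receptor 4, behaved otherwise. It had 9.24 in IL-17A with IMQ skin, 8.34 in GFP with IMQ skin, 8.39 in IL-17A skin and 8.98 in GFP skin, the combination being the highest array, and a departure of 1.48. The complement receptor gene Vsig4 (departure 1.21) and Ms4a6d, a membrane gene of monocytes (1.28), had GFP skin highest and the combination second. Cd14 was also the only gene past 1 of 19 detected Toll-like receptor and MyD88 genes, whose median was 0.53 with 16 of 19 positive. In that list Unc93b1, which carries the nucleic acid-sensing Toll-like receptors to the endosome, had a departure of 0.73 from levels of 8.70, 9.22, 8.83 and 10.08 in IL-17A with IMQ, GFP with IMQ, IL-17A and GFP skin.

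The most extreme cases of a high GFP array were not macrophage markers in the narrow sense. The Akr1cl probe, for an aldo-keto reductase, had 6.60 in IL-17A with IMQ skin, 7.11 in GFP with IMQ skin, 6.34 in IL-17A skin and 9.06 in GFP skin, and a departure of 2.21. All 3 treated arrays were low, and GFP with IMQ, the nearest to GFP skin, differed from it by -1.95. Lyve1, the hyaluronan receptor of lymphatic vessels and of some tissue macrophages, had 8.98, 8.99 and 8.92 on the 3 treated arrays in that order and 10.82 in GFP skin, with a departure of 1.89. Lyve1 was thus about as low with either agent alone as with both. Greb1, an oestrogen-responsive gene, was above the limit on the IL-17A with IMQ, GFP with IMQ and GFP arrays, with levels of 6.32, 6.36 and 7.94. Its IL-17A array was below the limit, so that the departure of this probe was at least 1.64. A further Greb1 probe, above the limit on 1 array, gave 0.68. Additivity would place 15 of the 87 genes, Akr1cl among them, below 6.26, the lowest level above the noise limit on the IL-17A with IMQ array, and 8 of them below the log2 of the offset of 50, which no signal on this scale can reach. For those 8 some positive departure is built into the scale.

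Fibroblast and collagen genes followed the same order of levels. Of 38 detected genes 34 had a positive departure and 5 a departure of at least 1, the median being 0.38, and GFP skin was highest in 30. The median of IL-17A minus GFP was -0.02 with IMQ and -0.48 without IMQ. Ccn5, a matricellular growth inhibitor, had 7.73 in IL-17A with IMQ skin, 8.56 in GFP with IMQ skin, 7.89 in IL-17A skin and 9.89 in GFP skin, for a departure of 1.18. Cd34, a surface protein of dermal fibroblasts, vessels and hair follicle stem cells, had 8.14, 8.06, 8.29 and 9.40 on the same arrays and a departure of 1.19. Pi16, a marker of adventitial fibroblasts, had a departure of 1.19 with levels of 11.51, 10.97, 11.23 and 11.88, and Col5a1, a chain of the fibrillar collagen that starts collagen fibres, one of 1.15. Fibroblast markers summed to 18883 signal units in IL-17A with IMQ skin, 18643 in GFP with IMQ skin, 18258 in IL-17A skin and 27113 in GFP skin, all 5 being above the limit on every array. Their part in the departure of other genes was not tested.

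Many mast cell genes were lowest with the single treatments and highest with the combination. Of 12 detected mast cell genes 9 had a positive departure, 5 a departure of at least 1, and the median was 0.76. The combination was the highest array in 9 of the 12, and both single-treatment arrays were lowest in 6. The median of IL-17A minus GFP was 0.66 with IMQ and -0.14 without IMQ. Tpsb2, the gene of a tryptase stored in mast cell granules, had 8.18 in IL-17A with IMQ skin, 7.16 in GFP with IMQ skin, 7.64 in IL-17A skin and 8.05 in GFP skin, and a departure of 1.42. Cpa3, the granule carboxypeptidase, had 9.96, 9.01, 9.50 and 9.82 on these arrays and a departure of 1.27. Mcpt4, the mouse chymase most like the human enzyme, had 9.95, 9.25, 9.29 and 9.79 and a departure of 1.20. Markers of mast cells summed to 2754 signal units in IL-17A with IMQ skin, 1327 in GFP with IMQ skin, 2058 in IL-17A skin and 2684 in GFP skin, with 4 of 5 above the limit on every array and Ms4a2 not detected. The GFP with IMQ array was therefore the low one, and the combination stood close to GFP skin. Hdc, which makes histamine and is used by mast cells and neutrophils alike, had 10.34, 8.35, 9.67 and 8.84 and a departure of 1.15. Its combination array was highest, IL-17A skin was above GFP skin, and GFP with IMQ was lowest.

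Immediate early genes, which are transcribed within minutes of growth factor, cytokine or mechanical signals, had positive departures in which, among the genes named here, the GFP with IMQ array was lowest. Of 26 detected genes 20 had a positive departure and 6 a departure of at least 1, with a median of 0.43. Fosb, an AP-1 subunit, had 8.16 in IL-17A with IMQ skin, 6.54 in GFP with IMQ skin, 7.60 in IL-17A skin and 8.25 in GFP skin. GFP with IMQ was more than 1 log2 unit below every other array, and the departure was 2.27. Ccn1, a secreted matrix protein induced by serum and by the YAP pathway, had 8.15, 6.83, 7.80 and 8.17, and a departure of 1.68. Errfi1, a feedback inhibitor of the EGF receptor, had 11.52, 10.93, 11.50 and 12.28 and a departure of 1.37, and Klf2, a zinc finger factor of quiescent endothelium and lymphocytes, a departure of 1.27. Ankrd1, a nuclear ankyrin repeat protein of stretched muscle and wounded skin that belongs to none of the lists, followed Ccn1 with 10.37, 9.28, 9.89 and 10.48, and a departure of 1.67.

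Among neutrophil genes the combination was the highest array in 16 of 27 detected genes, and among inflammatory cytokine and chemokine genes in 13 of 33, where GFP skin was highest in 10. Of the 27 detected neutrophil genes 23 had a positive departure, 7 a departure of at least 1, and the median was 0.56. The median of IL-17A minus GFP was 0.60 with IMQ and 0.19 without IMQ, and IMQ minus none was 0.23 in IL-17A skin and -0.08 in GFP skin. Markers of neutrophils summed to 1498 signal units in IL-17A with IMQ skin, 183 in GFP with IMQ skin, 837 in IL-17A skin and 354 in GFP skin. The 5 detected of 8 markers were above the limit on every array, and Ly6g, Fpr1 and Mmp8 were not detected. Fpr2, the formyl peptide receptor that guides neutrophils to damaged tissue, had log2 levels of 8.92 in IL-17A with IMQ skin, 7.08 in GFP with IMQ skin, 8.14 in IL-17A skin and 8.04 in GFP skin. IL-17A minus GFP was 1.84 with IMQ and 0.10 without IMQ, a departure of 1.74. Clec4d, a C-type lectin receptor of myeloid cells, had 8.71, 6.45, 7.70 and 6.90 and a departure of 1.46. The departure of Acod1, the enzyme that makes itaconate in activated myeloid cells, was at least 1.03 for its brightest probe. A further Acod1 probe, above the limit on 1 array, gave 0.58.

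Il1b, the inflammasome-processed cytokine that sustains IL-17 production, had a log2 level of 10.06 in IL-17A with IMQ skin, 7.16 in GFP with IMQ skin, 8.98 in IL-17A skin and 7.72 in GFP skin. IL-17A skin was 7.44-fold over GFP skin with IMQ and 2.40-fold over it without IMQ, a departure of 1.63. IMQ minus none was of opposite sign for Il1b, 1.08 in IL-17A skin and -0.56 in GFP skin. Ccl4, a chemokine of activated leukocytes, had 9.27 in IL-17A with IMQ skin, 6.82 in GFP with IMQ skin, 7.99 in IL-17A skin and 7.29 in GFP skin, for a departure of 1.74, and Ccl7, a monocyte attractant, had 9.72, 7.90, 9.02 and 8.70, for one of 1.49. Departures of genes below the limit on the GFP with IMQ array have only bounds. That of Cxcl2, a neutrophil attractant, was at least 1.10, that of Ccl3, another leukocyte chemokine, at least 1.07, and that of Osm, a cytokine of the IL-6 family made by leukocytes, at least 1.26. The combination was the highest array in each. These bounds hold for the brightest probe, and a further Cxcl2 probe, above the limit on 2 arrays, gave 1.05. Of 33 detected inflammatory cytokine and chemokine genes 6 had a departure of at least 1 and 1, Ccl27a, of at most -1, and the median was 0.14, so the list as a whole stayed near the median of all genes.

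S100a8 and S100a9, whose IL-17A differences under IMQ were 4.36 and 3.98, had smaller departures than Il1b at 1.63. S100a8 and S100a9 encode the subunits of calprotectin, a metal-binding antimicrobial protein of neutrophils and stressed keratinocytes. S100a8 had 14.50 in IL-17A with IMQ skin, 10.14 in GFP with IMQ skin, 13.19 in IL-17A skin and 10.01 in GFP skin. IL-17A skin was 20.5-fold over GFP skin with IMQ and 9.10-fold over it without IMQ, and the departure was 1.17. S100a9 had 13.33, 9.35, 12.05 and 9.21 and a departure of 1.14. IMQ minus none was 1.31 in IL-17A skin and 0.13 in GFP skin for S100a8, and 1.28 and 0.14 for S100a9. Saa3, an acute-phase protein made locally in inflamed epithelium, had 12.28 in IL-17A with IMQ skin, 10.72 in GFP with IMQ skin, 11.14 in IL-17A skin and 10.90 in GFP skin, and a departure of 1.31. Over the 26 detected IL-17-responsive antimicrobial and cytokine genes, 2 had a departure of at least 1, 0 of at most -1, and the median was 0.23. The 17 detected genes of the IL-17 receptor pathway had a median of 0.02 with 0 genes past 1 in either direction. Of all genes 0.683% were at 1 or more and 0.44% at -1 or less, so a count of 0 in so short a list does not set it apart.

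Epidermal hyperplasia genes, which mark the thickened epidermis of wounds and psoriasis, were highest in the combination in 28 of 32 detected genes, and their median departure was 0.22 with 3 genes at 1 or more. The Serpinb3a probe, for a serine and cysteine protease inhibitor of squamous epithelium with near-identical relatives, had 9.84 in IL-17A with IMQ skin, 7.23 in GFP with IMQ skin, 8.02 in IL-17A skin and 7.14 in GFP skin, and a departure of 1.73. IMQ minus none was 1.82 in IL-17A skin and 0.09 in GFP skin. A further Serpinb3a probe gave a departure of 0.56. The probes for Sprr2d and Sprr2f belong to the small proline-rich proteins, cross-linked into the cornified envelope of stressed epidermis, and may bind transcripts of their relatives. Sprr2d had 13.31, 10.68, 11.62 and 10.07 on the same arrays and a departure of 1.07, and Sprr2f 9.24, 6.94, 8.10 and 7.004 and one of 1.21. Krt6b, a keratin of stressed epidermis, was high with IL-17A in both settings, at 14.06, 10.68, 13.59 and 11.09, and its departure of 0.89 did not reach 1. Genes of cell division, which accompany hyperplasia, had a median departure of 0.02 over 37 genes. Of these 0 were past 1 in either direction, against 0.683% of all genes above and 0.44% below.

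Both Sprr2 promoters hold a match to the binding sequence of AP-1, the dimer of Fos and Jun proteins, which was searched as TGANTCA on both strands and is marked in capitals. They are the 250 bases before the start of Sprr2d (chr3:92338890-92339139, plus strand) and of Sprr2f (chr3:92364937-92365186, plus strand), from RefSeq on GRCm38.p6. Both are genes of the hyperplasia list that passed 1 and hold the motif. Serpinb3a, the highest departure of that list, was not among the genes with a match and is not shown.
Sprr2d: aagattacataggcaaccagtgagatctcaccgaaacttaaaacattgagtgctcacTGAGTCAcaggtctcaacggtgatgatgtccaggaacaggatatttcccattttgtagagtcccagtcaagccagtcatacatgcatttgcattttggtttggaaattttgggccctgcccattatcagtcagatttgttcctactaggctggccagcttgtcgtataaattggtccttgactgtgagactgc
Sprr2f: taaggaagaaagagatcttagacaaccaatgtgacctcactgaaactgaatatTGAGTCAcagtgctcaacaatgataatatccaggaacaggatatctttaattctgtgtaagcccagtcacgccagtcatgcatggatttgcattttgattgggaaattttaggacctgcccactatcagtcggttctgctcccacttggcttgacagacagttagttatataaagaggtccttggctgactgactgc
The match began 193 bases before the start of Sprr2d and 197 bases before that of Sprr2f. The motif was present in 2217 of the 32851 promoter windows (6.75%). Counted by gene and not by window, it was present in 9 of the 24 detected hyperplasia genes that had a promoter entry. All 9 of them were Sprr genes of a single cluster with related sequence.

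The lowest departures belonged to hair. Hair shaft keratins, keratin-associated proteins and inner root sheath keratins are made by follicles in their growth phase and not by resting ones. Of 48 detected genes of the hair shaft and root sheath list 42 had a negative departure, 21 of at most -1 and 0 of at least 1, with a median of -0.77, or -0.71 with dim arrays set at the noise limit. The GFP array was below the limit in 39 of the 48, so most of these values are bounded or unresolved and depend on how dim signals are treated. All 48 counted, the median of IL-17A minus GFP was 1.46 with IMQ and 2.39 without IMQ. Markers of growing follicles summed to 20432 signal units in IL-17A with IMQ skin, 5348 in GFP with IMQ skin, 12683 in IL-17A skin and 51.4 in GFP skin. On the GFP array 1 of the 6 detected markers passed the limit, and all 6 did on each of the other 3, with Foxn1 not detected.

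Krt27, an inner root sheath keratin, had a log2 level of 13.11 in IL-17A with IMQ skin, 11.24 in GFP with IMQ skin and 12.29 in IL-17A skin, and was below the limit in GFP skin, where its value was 6.07. All 3 treated arrays were far above GFP skin, and the combination was the highest of them. The departure was at most -4.18, an observed signal at least 18.1-fold below the product of both folds. Krt71, another inner root sheath keratin, had 12.81, 10.99 and 12.03 on the treated arrays and a departure of at most -3.96. The Krtap7-1 probe, for a keratin-associated protein of the hair cortex, had 12.14, 10.27 and 11.28 and a departure of at most -3.16. Prr9, a proline-rich gene of the hair shaft, was at most at -2.84, Krt73, a further inner root sheath keratin, at most at -2.58, and S100a3, a calcium-binding protein of the hair cuticle, at most at -2.55. These bounds hold for the brightest probe, and a further Krt73 probe gave -1.11. Krt28, an inner root sheath keratin that was above the limit on all 4 arrays, had 9.95, 8.81, 9.33 and 6.37 and a departure of -1.82. Multiplying the folds would put Krt27, Krt71 and Krtap7-1 above 15.36, the highest level of any gene on the IL-17A with IMQ array.

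On the linear scale, where additivity means that the signal increments of both agents sum, the hair genes no longer fell short. Krt27 had a normalized signal of 8825 in IL-17A with IMQ skin, where the product of folds gives 181526 and the sum of increments gives 7382. Krtap7-1 had 4527, where the product gives 50198 and the sum 3663. Krt28 had 992, where the product gives 3498 and the sum 1010. Of the 56 genes with a departure of at most -1, the sign differed between the scales in 26, which were 25 of the 26 hair shaft list or Krtap probes and Pinlyp, a gene outside the naming rule. The other 30 genes were below additivity on both scales, and all 87 genes with a departure of at least 1 were above it on both. For Il1b the observed signal was 1067, where the product gives 344 and the sum 439.

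**Figure D3:**
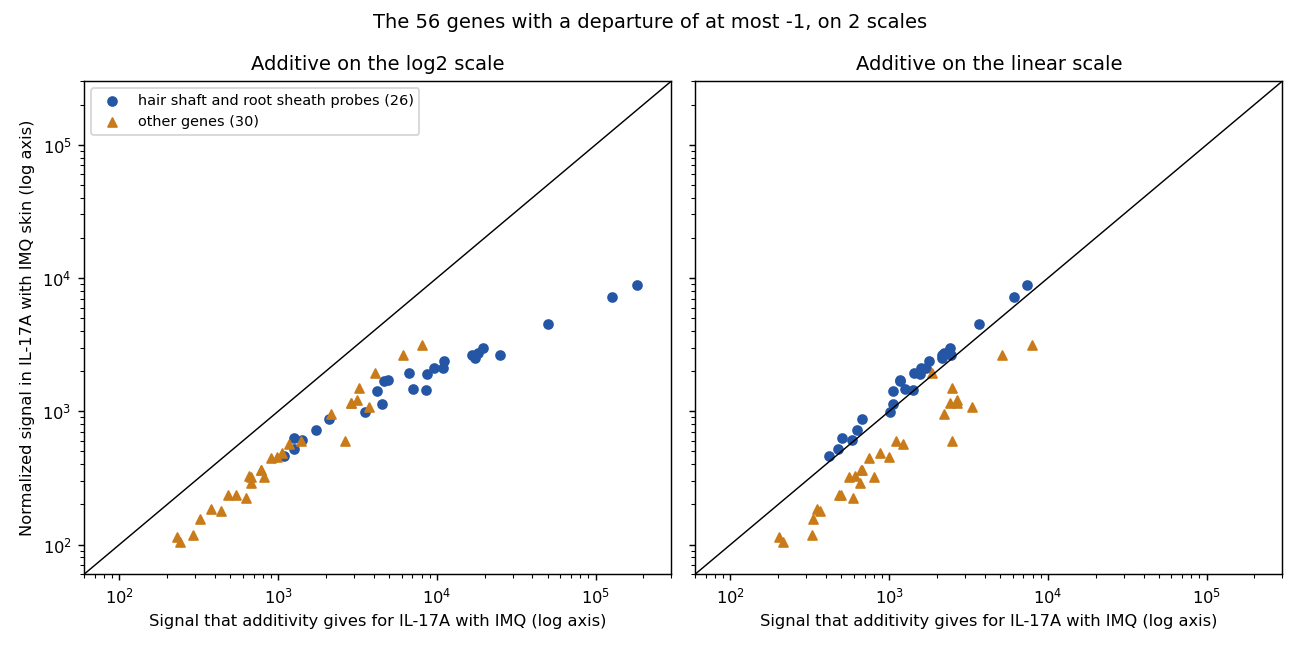
Normalized signal in IL-17A with IMQ skin on the vertical axis against the signal that additivity gives on the horizontal axis, both log axes, for the 56 genes with a departure of at most -1, with the line of equality. On the left additivity is taken on the log2 scale and every gene lies under the line, and on the right it is taken on the linear scale, where 26 genes, all hair shaft or Krtap probes but for Pinlyp, lie on the other side of it.

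Apart from hair, 30 genes had a departure of at most -1. The IL-17A with IMQ array stood apart in 11 of them, GFP in 10, GFP with IMQ in 8 and IL-17A in 1. In 22 both single-treatment arrays were the highest, so that each agent alone gave a higher level than GFP skin and the combination gave a lower one than either. This is an order of levels, and some single differences in it were small. IL-17A minus GFP without IMQ was 0.07 in Ccl27a, and IMQ minus none in GFP skin was 0.06 in Nmrk2. Among the 22 was Pdk4, the kinase that shuts glucose carbon out of mitochondria when fat is burned. It had 10.07 in IL-17A with IMQ skin, 11.28 in GFP with IMQ skin, 11.32 in IL-17A skin and 10.73 in GFP skin. Its departure was -1.80. Angptl4, an inhibitor of lipoprotein lipase that fatty acids induce through PPARs, had 10.24, 10.97, 10.83 and 10.18 and a departure of -1.37, but a further Angptl4 probe gave 0.34. Cidea, a lipid droplet protein of sebaceous gland and brown fat, had 10.17, 10.89, 10.58 and 9.97 and a departure of -1.32. Acoxl, an acyl-CoA oxidase-like gene, had 7.47, 8.09, 7.97 and 7.30 and a departure of -1.29. Of 25 detected sebaceous and fatty acid synthesis genes 20 had a negative departure, 1 (Cidea) of at most -1, and the median was -0.27. Of 18 detected adipocyte genes 1, Cidea again, had a departure of at most -1, and the median was -0.03. In the sebaceous list both single-treatment arrays were highest in 10 of the 25 (40%), against 14.7% of all genes.

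Most of the other named genes were lowest in the combination. Cyp2g1, a cytochrome P450 gene, had 9.22 in IL-17A with IMQ skin, 11.20 in GFP with IMQ skin, 10.47 in IL-17A skin and 10.31 in GFP skin, and a departure of -2.13, the lowest among genes above the limit on all 4 arrays. IMQ minus none was -1.24 in IL-17A skin and 0.89 in GFP skin. Ccl27a, the keratinocyte chemokine that draws skin-homing T cells through CCR10, had 11.61, 12.90, 12.63 and 12.56 and a departure of -1.36. The other 3 arrays lay close together and the combination about 1 log2 unit below them. Cyp17a1, a steroid-synthesis enzyme, had 7.79, 9.10, 8.61 and 8.42 and a departure of -1.49. Hoxa5, a homeobox factor of positional identity, had 8.17, 9.26, 8.81 and 8.68 and one of -1.24, and Nmrk2, a kinase of NAD synthesis in muscle, had 8.34, 9.51, 9.60 and 9.45 and one of -1.32. The Nmrk2 departure was -0.69 when all probes of the gene were averaged. Hamp2, a hepcidin gene, was lower with IL-17A in both settings and lowest in the combination, at 6.87, 9.04, 7.97 and 8.81, with a departure of -1.32. Btc, a ligand of the EGF receptor, had 7.89, 9.41, 8.78 and 9.29 and a departure of -1.02. Mir205hg, the host transcript of an epithelial microRNA, had 10.18, 11.29, 10.35 and 10.15 and a departure of -1.30, there with GFP with IMQ as the array that stood apart.

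Programmes of epidermal differentiation were close to additivity with a slight negative shift. Of 45 detected cornified envelope and barrier genes 35 had a negative departure, 0 reached -1 or 1 (0.44% and 0.683% of all genes did), and the median was -0.29. Krt77, a keratin of eccrine duct and suprabasal epidermis, came nearest with 12.07 in IL-17A with IMQ skin, 13.19 in GFP with IMQ skin, 12.58 in IL-17A skin and 12.76 in GFP skin, and a departure of -0.95. Basal keratinocyte genes had a median of -0.20 over 15 genes, and cholesterol synthesis genes one of -0.19 over 18. T and NK cell genes (-0.02 over 20), circadian clock genes (-0.01 over 14), MHC class I and immunoproteasome genes (0.03 over 18) and endothelial genes (0.12 over 28) lay near the median of all genes. Among these 4 lists 1 gene, Lyve1 of the endothelial list, passed 1, and 0 passed -1.

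**Figure D4:**
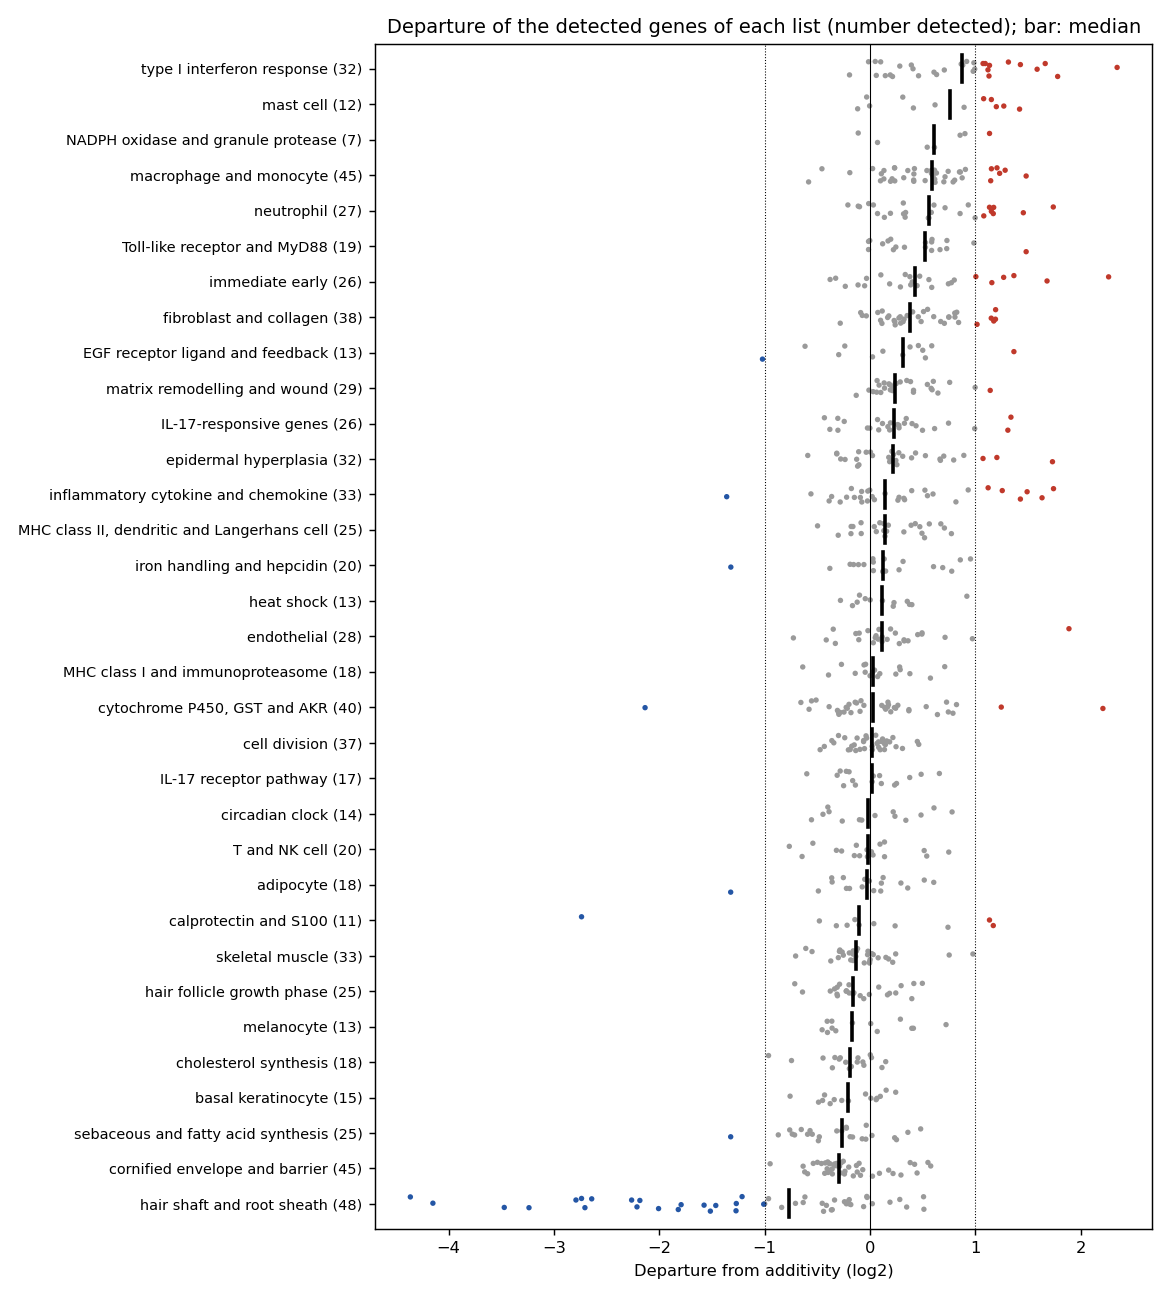
Departure on the log2 scale of every detected gene (points) of the 33 gene lists, with the number detected in brackets, a bar at each list's median and dotted lines at 1 and -1. The type I interferon list has the highest median at 0.87 and the hair shaft and root sheath list the lowest at -0.77, against a median of -0.01 for all genes.

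The size of a departure depended on how dim signals were treated, and its direction in the named genes did so less. The 34 genes compared were the 12 largest and 12 smallest departures measured on all 4 arrays and the 5 largest and 5 smallest bounds. Each kept its sign in every one of 7 settings that gave it a value, the main setting included. Asking for detection on all 4 arrays gave these genes their main value again or none, so their sign there was fixed in advance. The mean of probes likewise repeated the main value of genes such as Bst2, Il1b and Krt27. The 34 were also picked as extremes of the main setting on these same arrays. Their kept signs therefore describe the processing and are no independent check. Adding 50 to the signal draws the differences of dim genes towards 0. Under the authors' normalized values Bst2 had a departure of 2.64, Il1b 1.87 and Krt27 -5.94, against 2.35, 1.63 and -4.36 here. Where a gene had a further detected probe, it had the same sign in 33 of 33 genes with a departure of at least 1 and was at least 1.5-fold in the same direction in 23. Among genes with a departure of at most -1 it had the same sign in 15 of 17, the exceptions being Angptl4 and Wfdc3, the second of which lies outside the naming rule. Brightness also mattered for the counts. Of 3 groups of 4243 genes each by mean level, the dimmest held 9 with a departure of at least 1 and 0 of at most -1, the middle group 41 and 17, and the brightest 37 and 39.

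**Figure D5:**
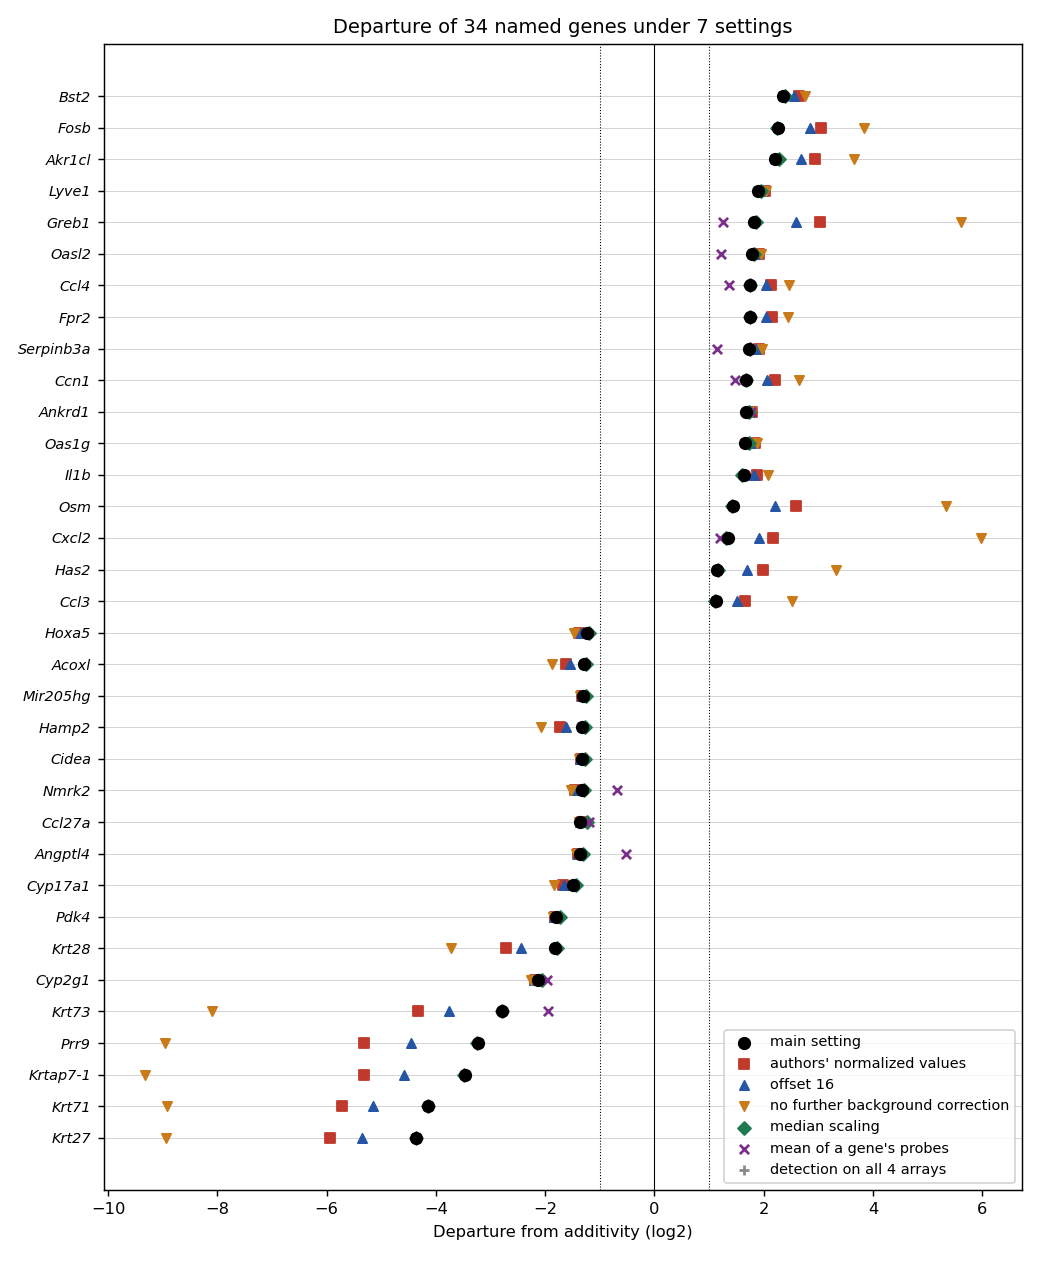
Departure on the log2 scale of 34 named genes, ordered by the main value, under 7 settings shown by symbol. All symbols of a gene lie on the same side of 0, the settings with less or no added background move the hair genes furthest, Krt27 down to -8.94, and Angptl4 and Nmrk2 come inside -1 when probes are averaged.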

How the data were processed

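Total RNA of 4 skin pools was measured on Illumina arrays that share a chip, per the labels. The deposited unnormalized table holds linear intensities of 45281 probes, 1 column an array. A background had been subtracted before deposit (32.3% to 33.7% of values are below 0), and no detection p-values or control probes came with it. A second deposited table holds the authors' normalized log2 values. The programs and normalization used by the authors are not given in the sources used here. Their intensities were corrected with limma 3.58.1 (normexp, offset 50), quantile-normalized and put on a log2 scale in R 4.3.3. The noise limit of an array was the 0.99 quantile of its negative values mirrored at 0 (a share of 0.01), which gave 20481 to 20719 probes above it. Symbols came from the platform annotation, which names 1 gene for 34885 probes, 18 having several symbols and 10378 no symbol. Each gene took its brightest probe above the limit on at least 1 array.

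Departures were calculated with pandas 2.3.3 and numpy 2.4.6 (Python 3.11.15), and the procedure was tested on simulated data. No test was made with 1 array a group, and the number of arrays limits the precision. Where arrays were below the limit, they were set to the higher of their own level and the lowest level above it, and the departure is given as a bound. A gene was counted at a departure of at least 1 or at most -1. Genes were named by a rule: Il17a, the 12 largest and 12 smallest departures among genes measured on all 4 arrays, the 5 largest and 5 smallest bounds, and up to 4 members of each of 33 gene lists with the largest departures. The members and lists were chosen with earlier results of these data known. Both IL-17A differences and both IMQ differences share arrays and are given side by side. Alternatives were the authors' values, an offset of 16, no further background correction, median scaling, the mean of a gene's probes, detection on all 4 arrays, folds of 1.5 and 3, exclusion of hair genes, and the linear scale. Promoters are RefSeq sequences on GRCm38.p6. Of the 143 genes counted, 104 had an entry.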

Additional observations from a re-analysis of the deposited data

Results flagged for a closer look

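In 21 genes the simple differences behind the departure were opposite in direction and at least 1.5-fold each. The difference between them was not tested, since each group has 1 array. Of the 21 genes, 15 belong to those named by rule. IL-17A minus GFP was positive with IMQ and negative without it in Bst2 (departure 2.35), Fosb (2.27) and Errfi1 (1.37), and negative with IMQ and positive without it in Angptl4 (-1.37), Cidea (-1.32) and Acoxl (-1.29). IMQ minus none was positive in IL-17A skin and negative in GFP skin in Bst2 again, Oasl2 (1.78), Fpr2 (1.74), Oas1g (1.66), Rsad2 (1.59), Ccl7 (1.49) and Cd14 (1.48). It was negative in IL-17A skin and positive in GFP skin in Cyp2g1 (-2.13), Cyp17a1 (-1.49) and Hoxa5 (-1.24). Bst2 was the only gene of the 21 in which all of these differences were at least 1.5-fold in both contrasts, which share the same 4 arrays.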

How the results depend on the processing

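Each group has 1 array, so none could be left out. No paired analysis was possible because each group has 1 array and no replicate numbers are shared. The counts of genes at a departure of at least 1 and at most -1, 87 and 56, depended most on the background step. They were 322 and 299 with the authors' normalized values, 201 and 143 with an offset of 16, and 1146 and 1097 without further background correction, while 86 to 87 of the 87 and all 56 of the 56 genes were among them. They were 99 and 50 with median scaling, 73 and 47 with probes of a gene averaged, 79 and 31 when detection on all 4 arrays was asked, 500 and 327 at 1.5-fold and 15 and 19 at 3-fold. Without hair genes 30 of the 56 were left. The share of high departures among those counted was 60.8%, and 71.8% when all 4 arrays had to detect a gene, so that hair genes dim in GFP skin were not counted. On the linear scale 30 of the 56 low departures had the same sign. List medians moved as follows, and the cause was not tested except where fewer genes were counted. The hair shaft and root sheath median of -0.77 was -1.87 with the authors' values, -1.45 with an offset of 16, -4.24 without further background correction and -0.27 with detection on all 4 arrays. Without further background correction the medians were 0.95 for neutrophil, 1.25 for mast cell and 0.58 for fibroblast and collagen genes. The inflammatory cytokine and chemokine median was 0.26 with the mean of probes and 0.033 with detection on all 4 arrays, where fewer genes were counted. The calprotectin and S100 median turned from -0.10 to 0.038 with detection on all 4 arrays, which left 9 of 11 genes. Among named genes past 1, Angptl4 (-0.51), Nmrk2 (-0.69), Acod1 (0.88) and Hdc (0.91) came inside it with the mean of probes, Sprr2d (0.98) with the authors' values and Btc (-0.97) with median scaling. Dim signals limit the hair values, since GFP skin was below the noise limit in 39 of 48 of these genes.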

Other observations

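Probes without a single gene symbol were left out of the gene counts. Of 3766 such probes that some array detected, 8 had a departure of at least 1 and 11 of at most -1. In 8 of these 11 the GFP array was below the limit, the same configuration as in the hair genes. They are unnamed here, and their genes were not identified.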
